A study of Homo sapiens with 4 samples.

Results

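Genes that build ribosomes were followed in A549 cell clusters with and without knockdown of DUSP23. The set held the protein-coding genes of the deposited table whose symbols begin with NOP, UTP, RRP or NOL and a number, the POLR1 subunits A to H, GAR1, and the named genes NCL, NPM1, FBL, DKC1, NHP2, BOP1, PES1 and WDR12. It came to 53 genes of the 16371 listed, of which 13456 were protein-coding. The rule reads gene names alone, and all 53 passed the filter on low values (a 4-library mean of 1 FPKM or more) and were tested. NOL3 and NOL4L carry the NOL name but are not known as ribosome factors. They form a role of their own below, but are included in all figures given for the 53 genes.

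A549 is a human lung adenocarcinoma cell line. The libraries came from tumor cell clusters of this line that carried shMock, a control construct labelled wild type, or shDUSP23, a short hairpin RNA construct labelled as a knockdown of DUSP23. Each group had 2 libraries, numbered 1 and 2, made from total RNA with an mRNA kit. DUSP23 encodes a small dual-specificity phosphatase. The labels did not give the hairpin, the number of clones, whether the replicates were separate cultures, or what the suffix SUS in the titles stands for. The p-values below therefore measure only the spread between these libraries, which may be technical.

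Ribosome production starts in the nucleolus, where RNA polymerase I transcribes a long precursor of the 18S, 5.8S and 28S ribosomal RNAs. Small nucleolar ribonucleoproteins (snoRNPs) methylate and pseudouridylate this precursor, and large assemblies fold and cut it into the small and the large ribosomal subunit. Dividing cells invest heavily in this process, and the transcription factor MYC is known to drive many of its genes.

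DUSP23 itself averaged 32.9 ± 4.18 FPKM in shMock and 2.21 ± 0.71 FPKM in shDUSP23 (SD, n = 2), a log2 fold change of -3.64 ± 0.22 (SE, limma adjusted p = 3.12e-05). FPKM relates the fragments of a transcript to its length and to the sequencing depth, and a gene is given as the sum of its listed transcripts. The spacing of low FPKM values gave 21274700 and 25243700 fragments for shMock 1 and 2 and 26996300 and 42235200 for shDUSP23 1 and 2. All 6 epithelial markers were listed, with KRT7, KRT8 and KRT18 at 370 FPKM or more in every library. They summed to 2650 and 2560 FPKM in shMock and to 2010 and 2090 FPKM in shDUSP23, with CDH1 at 22.4 and 21.5 against 6.2 and 8.14 FPKM and EPCAM at 5.83 and 7.05 against 3.47 and 4 FPKM. KRT19 stood at 6.02 and 7.38 FPKM in shMock and at 5.73 and 8.96 FPKM in shDUSP23. Of the lung adenocarcinoma markers NAPSA was listed, at 1.96 and 2.14 FPKM in shMock and 3.22 and 2.42 FPKM in shDUSP23. The alveolar genes SFTPB, SFTPC and NKX2-1 were not among the listed genes. Of other cell types 3 of 6 fibroblast, 1 of 5 leukocyte and 0 of 3 endothelial markers were listed. The fibroblast genes summed to 2.60 to 3.18 FPKM in shMock and 4.56 to 4.90 in shDUSP23, and the leukocyte gene CD14 stood at 4.68 and 8 FPKM against 0.983 and 0.995 FPKM. Mitochondrial genes took 12.3% and 13.1% of all listed FPKM in shMock and 8.12% and 7.97% in shDUSP23. The part of these shifts in the results was not tested, and in such bulk libraries fewer cells of a type and less RNA per cell cannot be told apart.

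Most of the ribosome biogenesis genes were lower in shDUSP23. Of 53 tested, NOL3 and NOL4L included, 34 fell, 1 rose (NOL4L) and 18 did not pass the test. A gene is called where limma, fitted over 13691 genes on log2(FPKM + 0.5), gave a Benjamini-Hochberg adjusted p below 0.05. That scale understates the change of low genes. The called share was 64.2% lower, where 22.2% of all tested genes were called lower and 23.1% higher. The median log2 fold change was -0.68, against 0.03 over all tested genes, and 48 of the 53 lay below 0. In 42 genes the higher shDUSP23 value was still under the lower shMock value, in POLR1H, RRP1 and NOL4L, 3 in all, the order was opposite, and in 8 the groups overlapped (all tested genes: 36.2% lower and 39.3% higher without overlap). A log2 fold change of -1 or lower was reached by 17 of the 53, or by 9.37% of all tested genes. The counts of 34, 42 and 17 include UTP14C, which passed the filter only through shMock.

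The 53 genes together summed to 2888 and 3075 FPKM in shMock 1 and 2 and to 1634 and 1522 FPKM in shDUSP23 1 and 2, so that the mean was 1.89-fold lower. As a share of all listed FPKM this was 0.535% and 0.532% in shMock and 0.373% and 0.340% in shDUSP23. NPM1, NCL, NOP56, FBL and NOP10, the 5 members with a mean over 100 FPKM, all fell, with a median of -1.18. Of all 683 tested genes at that level 52.9% were called lower and the median was -0.41. Between 20 and 100 FPKM 13 of 17 members fell with a median of -0.64 (all genes: 30.4% and -0.07), and under 20 FPKM 16 of 31 fell with a median of -0.48 (all genes: 16.5% and 0.09). At each level the members' share of lower calls thus stood above that of all genes of similar level.

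2 limits apply to these counts. The listed FPKM summed to 540163 and 578361 in shMock but 438604 and 446982 in shDUSP23, and after scaling to equal sums 22 members were lower and 4 (POLR1H, UTP3, RRP1 and NOL4L) higher (all genes: 12.3% and 38.4%), with medians of -0.35 for the members and 0.34 for all genes. Leaving out shMock 2 left 22 lower, and leaving out shMock 1 left 24.

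**Figure D1:**
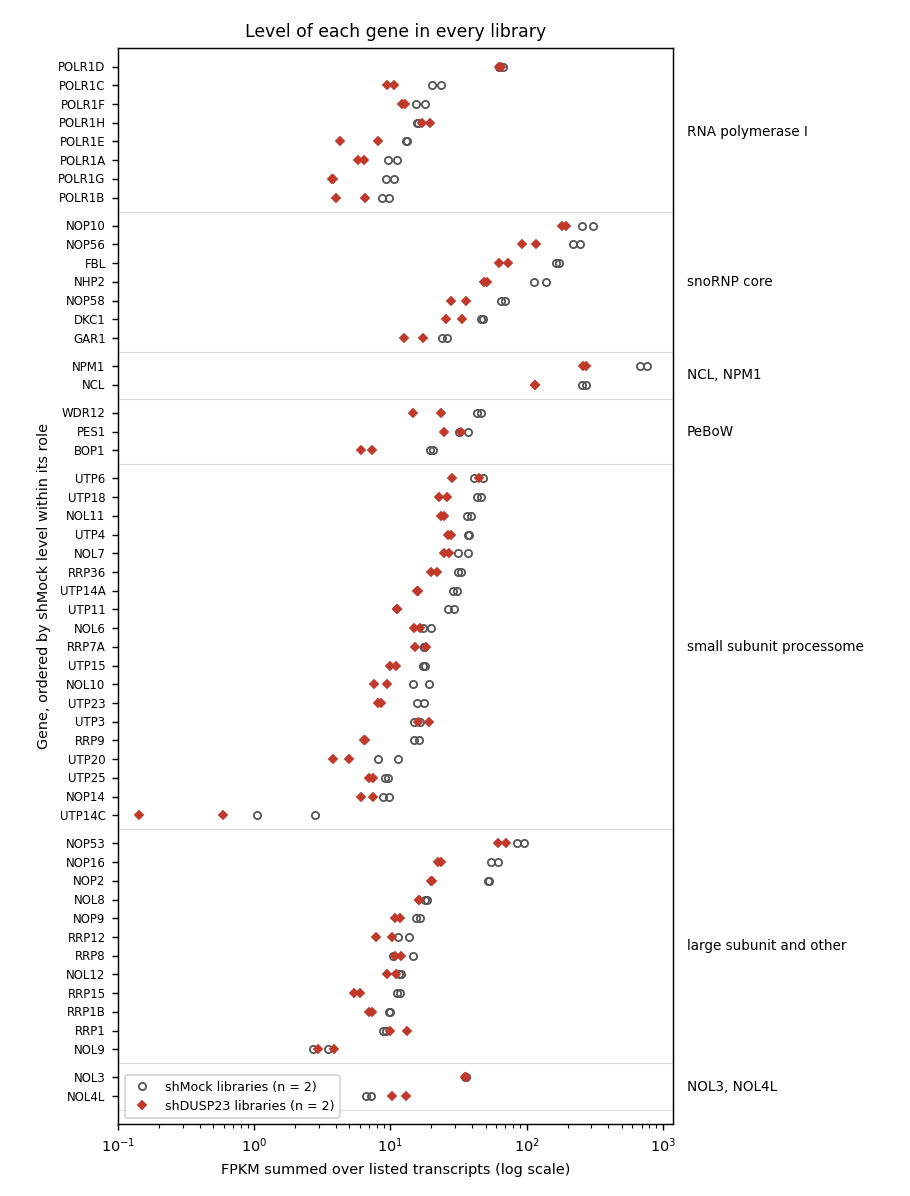
Level of each of the 53 genes in every library, in FPKM on a log axis, grouped by role, with open circles for the 2 shMock and diamonds for the 2 shDUSP23 libraries. Diamonds lie left of both circles in 42 genes, and NPM1, the most abundant, drops from 682 and 766 to 272 and 258 FPKM.

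RNA polymerase I, the enzyme that makes the ribosomal RNA precursor, had 8 listed subunit genes, of which 5 fell and 0 rose, with a median log2 fold change of -0.76. In this role and in every other role or list with 0 genes called higher below, 0 were also higher at an unadjusted p under 0.05 in limma. With equal sums 3 subunits were lower and 1 higher, with a median of -0.45, and without shMock 1 or shMock 2 the lower count was 2. POLR1A, the largest catalytic subunit, stood at 11.1 and 9.67 FPKM in shMock 1 and 2 and at 5.73 and 6.41 FPKM in shDUSP23 1 and 2. POLR1B, the second catalytic subunit, went from 9.74 and 8.63 to 6.46 and 3.95 FPKM. Neither gene's groups overlapped, and the log2 fold changes were -0.73 ± 0.18 (SE, adjusted p = 0.0116) and -0.80 ± 0.24 (adjusted p = 0.0267). POLR1E and POLR1G form the heterodimer that is particular to this polymerase. POLR1E stood at 13.1 and 13.2 FPKM in shMock and at 8.11 and 4.24 FPKM in shDUSP23, and POLR1G at 9.32 and 10.7 against 3.69 and 3.76 FPKM. The fall of POLR1G was the steepest of the subunits, at -1.31 ± 0.19 (adjusted p = 0.000966), and POLR1E fell by 1.10 ± 0.27 (adjusted p = 0.0105). POLR1G is ENSG00000117877 at chr19:45406209-45410766 on GRCh38.

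POLR1C and POLR1D form a pair that RNA polymerase I shares with RNA polymerase III. POLR1C stood at 20.1 and 23.6 FPKM in shMock and at 10.6 and 9.40 FPKM in shDUSP23, a log2 fold change of -1.08 ± 0.16 (adjusted p = 0.00101). POLR1D stood at 62.3 and 67.5 against 65.1 and 62.5 FPKM, with overlapping groups and a log2 fold change of -0.02 ± 0.12 (adjusted p = 0.882). POLR1D was the most abundant of the subunit transcripts on the FPKM scale, which is per length. In POLR1D the largest transcript, POLR1D-201, stood at 45.0, 53.8, 42.9 and 43.5 FPKM over shMock 1 and 2 and shDUSP23 1 and 2, and POLR1D-203 at 13.0, 10.8, 15.3 and 13.2 FPKM. Their log2 fold changes of -0.19 and 0.26 had opposite signs, and neither passed the test (adjusted p = 0.450 and 0.443). POLR1F, part of the stalk, stood at 15.4 and 18.0 FPKM in shMock and 12.2 and 12.8 FPKM in shDUSP23, without overlap, and narrowly missed the threshold at -0.41 ± 0.15 (adjusted p = 0.0603). POLR1H, the subunit for RNA cleavage, had values of 15.9 and 15.6 against 17.1 and 19.6 FPKM and a log2 fold change of 0.22 ± 0.15 (adjusted p = 0.255). With equal sums POLR1H was called higher, at 0.54 (adjusted p = 0.0191), and POLR1D stood at 0.31 (adjusted p = 0.062). POLR1C and POLR1G kept their calls in all 18 alternatives, whereas POLR1A, POLR1B and POLR1E lost theirs without shMock 1 (adjusted p = 0.109, 0.164 and 0.0736) and without shMock 2 (adjusted p = 0.0594, 0.11 and 0.0831), and POLR1B also without shDUSP23 2 (adjusted p = 0.088).

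**Figure D2:**
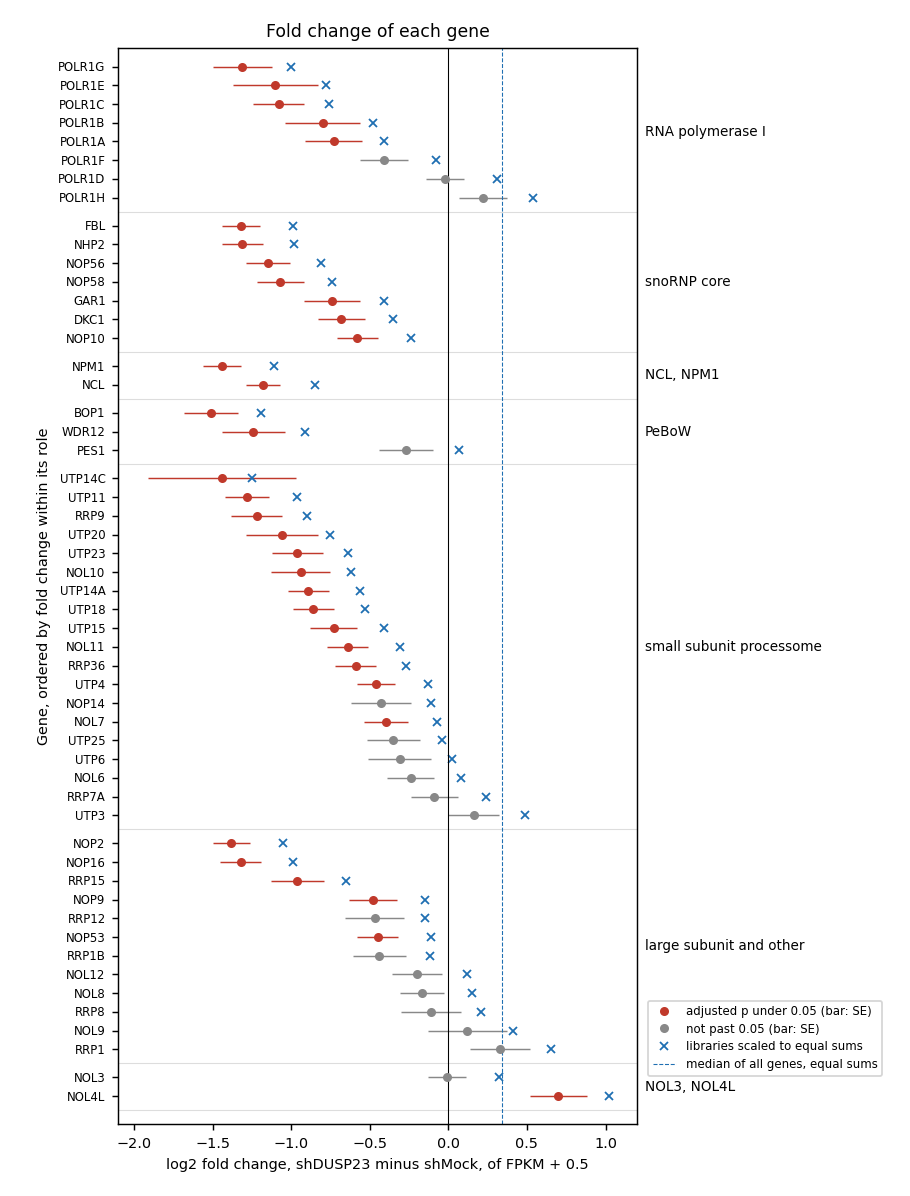
Log2 fold change of each gene (shDUSP23 minus shMock, on FPKM + 0.5) with its standard error as a bar, in red where the adjusted p was under 0.05 and grey otherwise. Crosses give the value with libraries scaled to equal sums, where the dashed line marks the median of all genes at 0.34. The snoRNP core proteins of the set, NCL and NPM1 are all red, and NOL4L is the red point to the right of 0.

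The snoRNP core proteins of the set fell in 7 of 7 cases (4 with equal sums), with a median log2 fold change of -1.07. SNU13, a further core protein of box C/D snoRNPs, lies outside the set and is counted below with the small subunit processome. It stood at 45.8 and 53.5 FPKM in shMock and at 43.8 and 35.0 FPKM in shDUSP23, and was not called (-0.33 ± 0.15, adjusted p = 0.0999). FBL (fibrillarin), the methyltransferase of box C/D snoRNPs, stood at 165 and 174 FPKM in shMock and at 73.0 and 62.5 FPKM in shDUSP23, a log2 fold change of -1.32 ± 0.12 (adjusted p = 0.000135). NOP56 and NOP58 are the scaffold proteins of the same particle. NOP56 went from 219 and 245 to 117 and 93.2 FPKM (-1.15 ± 0.14, adjusted p = 0.000409), and NOP58 from 65.0 and 69.0 to 36.1 and 27.7 FPKM (-1.07 ± 0.15, adjusted p = 0.000783). All shDUSP23 values of these 3 genes lay below all shMock values.

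DKC1 (dyskerin) is the pseudouridine synthase of the box H/ACA snoRNPs, and NHP2, NOP10 and GAR1 are its partners in the particle. DKC1 stood at 46.5 and 47.9 FPKM in shMock and at 33.4 and 25.5 FPKM in shDUSP23 (-0.68 ± 0.15, adjusted p = 0.00701). NHP2 went from 114 and 138 to 48.8 and 51.2 FPKM (-1.31 ± 0.13, adjusted p = 0.000168), the steepest fall of the 4. NOP10 stood at 255 and 308 against 195 and 181 FPKM (-0.58 ± 0.13, adjusted p = 0.00702), and GAR1 at 26.2 and 23.9 against 17.4 and 12.6 FPKM (-0.74 ± 0.18, adjusted p = 0.00991). No gene of this particle had overlapping groups. The calls of DKC1, NOP10 and GAR1 were lost with equal sums (adjusted p = 0.0936, 0.111 and 0.0983), that of NOP10 also with quantile normalization and with the GC content and length correction (adjusted p = 0.0683 and 0.0512), that of DKC1 without shMock 2 (adjusted p = 0.0609), and that of GAR1 without shMock 1 or shMock 2 (adjusted p = 0.085 and 0.0564).

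NPM1 (nucleophosmin) and NCL (nucleolin) are abundant nucleolar proteins that bind RNA and histones. NPM1, ENSG00000181163 at chr5:171387116-171411137, stood at 682 and 766 FPKM in shMock and at 272 and 258 FPKM in shDUSP23, a 2.73-fold lower mean and a log2 fold change of -1.44 ± 0.12 (adjusted p = 8.83e-05). NCL, ENSG00000115053 at chr2:231453531-231483641, stood at 272 and 254 against 116 and 115 FPKM, a log2 fold change of -1.18 ± 0.11 (adjusted p = 0.000138). Its sum was spread over 16 listed transcripts, and the largest, NCL-203, held 29.5% and 26.7% of it in shMock and 31.5% and 33.2% in shDUSP23. NCL-201 stood at 0.455 and 0.0404 FPKM in shMock and 0.406 and 0 FPKM in shDUSP23. The NCL transcripts of known length averaged 614 bases, weighted by level, beside a median of 2138 over the members. NPM1 alone held the highest level of the set in every library. Both kept their calls in all alternatives run. NPM1 has many processed pseudogenes, so that the assignment of its reads depends on how multiply mapping reads were counted, which the sources used here do not state.

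The PeBoW complex of PES1, BOP1 and WDR12 acts in large subunit maturation, and 2 of its 3 genes fell. BOP1 had the lowest log2 fold change of the 53 genes, from 19.4 and 20.7 FPKM in shMock to 7.32 and 6.09 FPKM in shDUSP23 (-1.51 ± 0.17, adjusted p = 0.000257). WDR12 went from 46.1 and 43.4 to 23.6 and 14.7 FPKM (-1.24 ± 0.20, adjusted p = 0.00175). Most of the WDR12 sum lay in transcripts listed as retained introns, and its protein-coding transcripts held 13.8% and 14.2% of it in shMock and 7.18% and 17.3% in shDUSP23. PES1 stood at 32.0 and 36.9 FPKM in shMock and at 24.7 and 32.9 FPKM in shDUSP23, with overlapping groups (-0.27 ± 0.17, adjusted p = 0.219). In PES1 the sum over protein-coding transcripts alone was called lower, at -0.50 (adjusted p = 0.0193), as was the whole sum without shDUSP23 2, at -0.47 (adjusted p = 0.0412), while with equal sums the value was 0.07.

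The small subunit processome, the assembly that folds and cuts the 18S part of the precursor, had 19 listed members, of which 13 fell and 0 rose, with a median of -0.64. UTP11 stood at 26.3 and 29.1 FPKM in shMock and at 11.1 FPKM in both shDUSP23 libraries (-1.28 ± 0.14, adjusted p = 0.000273). RRP9, a protein of the U3 snoRNP, went from 15.0 and 16.3 to 6.44 and 6.48 FPKM (-1.22 ± 0.16, adjusted p = 0.000643). UTP14A, a partner of the RNA helicase DHX37, went from 28.7 and 30.6 to 15.9 and 15.6 FPKM (-0.89 ± 0.13, adjusted p = 0.00112). These 3 had the smallest p of the role, a choice that favors genes with close replicates. The other 10 that fell were UTP14C, UTP20, UTP23, NOL10, UTP18, UTP15, NOL11, RRP36, UTP4 and NOL7, with log2 fold changes from -1.44 to -0.40. UTP14C was the lowest member, at 1.05 and 2.79 against 0.141 and 0.587 FPKM. It passed the filter only through shMock, and as a near copy of UTP14A it may share reads with it. UTP3, UTP6, UTP25, NOL6, RRP7A and NOP14 did not pass the test and ranged from -0.43 (NOP14) to 0.16 (UTP3). RRP7A has a near-identical copy, so its reads are likewise uncertain. NOL7, with an adjusted p of 0.0478, lost its call without any 1 of the 4 libraries (adjusted p = 0.0516 to 0.279), and so did UTP14C without shMock 1, shMock 2 or shDUSP23 1 (0.0518, 0.364 and 0.0644). The count of 13 was 8 without shMock 1, without shMock 2 and with equal sums.

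The large subunit and other processing and modification factors had 12 members, of which 5 fell and 0 rose, with a median of -0.44. NOP2, a methyltransferase of 28S ribosomal RNA, stood at 52.3 and 53.2 FPKM in shMock and at 20.1 and 19.9 FPKM in shDUSP23 (-1.38 ± 0.12, adjusted p = 0.000115). NOP16 went from 55.0 and 62.0 to 23.7 and 22.4 FPKM (-1.32 ± 0.13, adjusted p = 0.000158), and RRP15 from 11.8 and 11.2 to 5.96 and 5.36 FPKM (-0.96 ± 0.17, adjusted p = 0.00271). Both act in large subunit precursors, and all 3 genes kept their calls in all alternatives run. NOP9 and NOP53 fell by 0.48 and 0.45, and both lost the call without shMock 2 (adjusted p = 0.181 and 0.128), NOP9 also without shMock 1 or shDUSP23 2 (0.112 and 0.0781) and NOP53 without shDUSP23 1 (0.0957). RRP1, RRP1B, RRP8, RRP12, NOL8, NOL9 and NOL12 did not pass the test, and they ranged from -0.47 (RRP12) to 0.33 (RRP1). In this role 3 were called lower with equal sums and without shMock 2.

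NOL3, an inhibitor of cell death, stood at 36.0, 35.4, 35.6 and 35.1 FPKM over shMock 1 and 2 and shDUSP23 1 and 2, with overlapping groups (-0.01 ± 0.12, adjusted p = 0.936). Its largest listed transcript, NOL3-201, had a log2 fold change of 0.13, and NOL3-211, whose value of 1.62 FPKM in shDUSP23 1 stood apart from 8.12 to 8.52 in the other libraries, one of -0.99. NOL4L, ENSG00000197183 at chr20:32443059-32585074, stood at 6.56 and 7.17 FPKM in shMock and at 10.3 and 12.9 FPKM in shDUSP23. It was the only member called higher (0.70 ± 0.18, adjusted p = 0.0144), and this call was lost after correction for GC content and length (0.41, adjusted p = 0.0874) and without shMock 1, shMock 2 or shDUSP23 2 (adjusted p = 0.0973, 0.0709 and 0.053).

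The table listed 231 transcripts of these genes, of which 118 were protein-coding, 65 retained introns, 29 processed transcripts and 19 targets of nonsense-mediated decay. In a limma fit over 37453 transcripts 163 of them were tested, and 13 were called lower and 0 higher (all transcripts: 2.45% lower and 1.7% higher). The median log2 fold change was -0.76 over 96 protein-coding transcripts and -0.84 over 36 retained introns. It was -0.99 over 19 processed transcripts and -0.45 over 12 decay targets. Over all protein-coding genes the medians of these classes were -0.02, -0.10, 0.02 and 0.14, in the same order. Protein-coding transcripts held 84.5% and 84.7% of the members' FPKM in shMock and 83.7% and 85.5% in shDUSP23. Over all genes, transcripts at 0 numbered 2930 and 4334 in shMock 1 and 2 and 4814 and 9946 in shDUSP23 1 and 2. Member transcripts at 0 in shDUSP23 2 included NCL-212, at 35.2 and 24.2 FPKM in shMock and 8.65 FPKM in shDUSP23 1. The part of such zeros in the transcript values was not tested. With any 1 of the 4 libraries left out limma called 0 transcripts, with 29 to 75 lower at an unadjusted p under 0.05 (62 with all libraries, beside 3 higher). With equal sums 6 were called lower.

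NPM1 showed the fall in each of its 3 leading transcripts. NPM1-201 stood at 527 and 588 FPKM in shMock and at 228 and 219 FPKM in shDUSP23 (-1.32 ± 0.10, adjusted p = 0.0285), and NPM1-203 at 67.3 and 84.5 against 17.9 and 14.5 FPKM (-2.19 ± 0.19, adjusted p = 0.0291). NOP56 differed between its transcripts in size. Its largest, NOP56-216, is a processed transcript and went from 76.8 and 104 to 35.9 and 27.7 FPKM (-1.49 ± 0.22, adjusted p = 0.0464). The protein-coding NOP56-201 stood at 65.8 and 57.1 against 47.7 and 48.7 FPKM, with a log2 fold change of -0.34. Protein-coding transcripts held 32.6% and 26.5% of the NOP56 sum in shMock and 42.3% and 54.8% in shDUSP23, and the NOP56 sum over them alone was called lower at -0.43 (adjusted p = 0.0214). The difference between the transcripts was not tested.

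NOL12 had transcripts with log2 fold changes of opposite sign, a difference that was not tested. NOL12-202, a target of nonsense-mediated decay, stood at 8.01 and 7.29 FPKM in shMock and at 1.45 and 2.38 FPKM in shDUSP23 (-1.78 ± 0.31, adjusted p = 0.06). The protein-coding NOL12-207 stood at 1.93 and 2.72 against 5.99 and 5.95 FPKM (1.21 ± 0.28, adjusted p = 0.0914). Neither passed the test over all transcripts. Protein-coding transcripts held 27.9% and 35.1% of the NOL12 sum in shMock and 71.5% and 58.2% in shDUSP23. Summed over these alone NOL12 was called higher at 0.76 (adjusted p = 0.0191), while the sum over all its transcripts was at -0.20 ± 0.16 (adjusted p = 0.353). NOL12 was singled out after its values were seen.

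**Figure D3:**
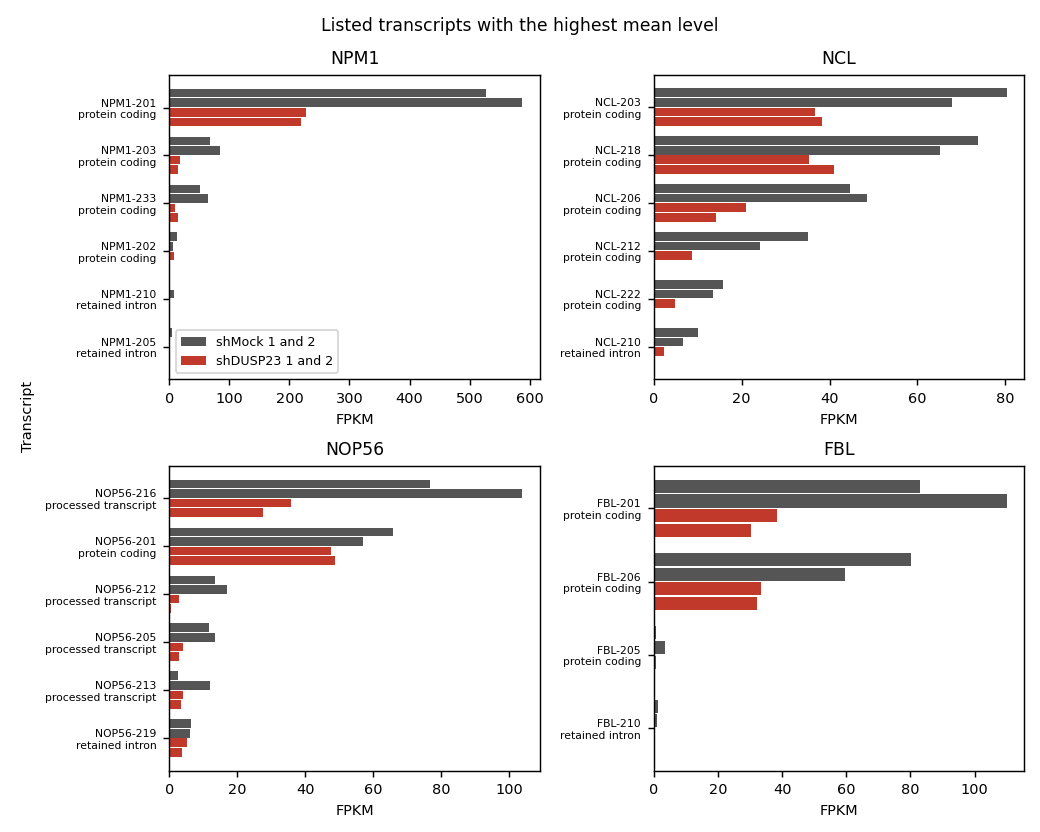
FPKM of the listed transcripts with the highest mean level in NPM1, NCL, NOP56 and FBL, 1 bar per library (dark for shMock 1 and 2, red for shDUSP23 1 and 2). NOP56-216, a processed transcript, drops from 76.8 and 104 to 35.9 and 27.7 FPKM, and the protein-coding NOP56-201 from 65.8 and 57.1 to 47.7 and 48.7 FPKM.

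Many promoters of ribosome biogenesis genes carry CACGTG, the E-box bound by MYC with its partner MAX, and the promoters of the set were searched for these letters. RefSeq promoters (build GRCh38.p14, from 250 bases before to 50 bases after the RefSeq start) were matched by symbol for 46 of the 53 genes, all but BOP1, NOL10, NOP58, RRP12, RRP1B, POLR1E and UTP23. CACGTG, which reads the same on both strands, was in 16 of the 46 (34.8%), in 7.26% of all 35116 promoters, and in 12.7% of the 10055 tested genes with a promoter. In 8 of the 46 members a match lay wholly before the RefSeq start, beside 11.3% of the 10055 tested genes. For these 8 members 30 bases around the match nearest to the start are shown, 5′ to 3′ on the gene's strand, with the E-box in capitals.
POLR1G: gccctacccctttggatcCACGTGgtctgc
NOP10: caggaaggaaattgacgaaCACGTGacgcg
UTP20: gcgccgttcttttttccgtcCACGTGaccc
UTP4: tgagagcgcgcgcgCACGTGgggccggggc
UTP18: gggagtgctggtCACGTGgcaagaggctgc
UTP14A: accttgggcCACGTGgaaaccaggggccag
NOL7: gcctgcgctggcCACGTGgaaagaaacacg
NOL8: agagaggatgctccgttgggaCACGTGacc

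The windows lie at chr19:45406614-45406643 (plus strand) for POLR1G, chr15:34343137-34343166 (minus) for NOP10, chr12:101280075-101280104 (plus) for UTP20, chr16:69132619-69132648 (plus) for UTP4, chr17:51260445-51260474 (plus) for UTP18, chrX:129905914-129905943 (plus) for UTP14A, chr6:13615174-13615203 (plus) for NOL7 and chr9:92325351-92325380 (minus) for NOL8. In POLR1G, NOP10, UTP20, UTP4 and NOL8 the E-box shown began 9 to 16 bases before the RefSeq start. The GENCODE gene positions used here begin further upstream for POLR1G (45406209), UTP4 (69131291), NOP10 (34343177) and NOL8 (92325636). By those positions the bases shown for these genes lie inside the gene. For UTP20, UTP18, UTP14A and NOL7 they lie before it. NOP10 and UTP18 each held a further CACGTG in the promoter, in NOP10 before and in UTP18 after the RefSeq start. Of these 8 genes NOL8 alone was not called, at 18.5 and 17.9 FPKM in shMock and 16.1 and 16.2 FPKM in shDUSP23 (-0.17 ± 0.14, adjusted p = 0.338). Among members with the E-box in the window 11 of 16 fell, and among those without it 18 of 30, with medians of -0.66 and -0.62. The medians thus lay close together, and a match of letters is a description of the promoter only.

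MYC itself stood at 28.8 and 23.0 FPKM in shMock and at 43.0 and 44.2 FPKM in shDUSP23, a rise of 0.75 ± 0.14 (adjusted p = 0.00367). MAX rose from 16.1 and 15.4 to 23.9 and 27.4 FPKM (0.68 ± 0.14, adjusted p = 0.00525, and 0.0513 without shMock 2). Both were thus higher where most of the 53 genes were lower. They belong to a list of 18 transcription factors and regulators of RNA polymerase I and the nucleolus. Of these 18 genes 5 fell and 6 rose, with a median of -0.24 (all genes: 22.2% lower and 23.1% higher). With equal sums 4 were lower and 6 higher, with a median of 0.09, and without shMock 1 or shMock 2 the lower count was 3. NOLC1, a chaperone of snoRNPs, fell from 59.6 and 52.3 to 22.2 and 21.8 FPKM (-1.32, adjusted p = 0.00016), and MYBBP1A, a nucleolar regulator of transcription, from 22.3 and 26.2 to 12.3 and 12.7 FPKM (-0.93, adjusted p = 0.00155). TAF1D, TTF1 and TCOF1 were the other 3 that fell (adjusted p = 0.00527, 0.012 and 0.0249). The deacetylase gene SIRT7 rose from a mean of 20.1 to one of 44.6 FPKM (1.12, adjusted p = 0.000871). MDM2, the ubiquitin ligase of p53, rose by 0.65, BAZ2A, a subunit of a complex that silences ribosomal DNA, by 0.55, and the histone demethylase gene KDM2A by 0.53. Without shMock 2 the calls of BAZ2A and KDM2A were lost (adjusted p = 0.0594 and 0.0616), and without shMock 1 that of KDM2A (0.0608).

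Other genes of the ribosome pathway were also more often called lower than higher. The lists of regulators, subunit assembly, the exosome, snoRNP assembly and shared polymerase subunits had 140 tested genes. Over all tested genes 22.2% were called lower and 23.1% higher, or 12.3% and 38.4% with equal sums. Of the 140 genes 77 fell and 9 rose, with a median of -0.52. With equal sums 39 were lower and 17 higher, with a median of -0.19, and the lower count was 49 without shMock 1 and 47 without shMock 2. PWP2 alone of the 141 listed genes was not tested, with 0.856 and 1.11 FPKM in shMock and 0 and 0.470 in shDUSP23.

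Among small subunit processome genes outside the UTP names 15 of 31 fell and 1 rose, with a median of -0.33. With equal sums 7 were lower and 2 higher and the median was -0.00, and without shMock 1 the lower count was 9. IMP4, a U3 snoRNP protein, fell from 43.9 and 46.0 to 12.2 and 16.1 FPKM (-1.65, adjusted p = 0.000156), and DCAF13 and RCL1 fell with log2 fold changes of -1.32 and -1.37. AATF rose by 0.59 (adjusted p = 0.0124, and 0.104 without shMock 2). In a further list, mostly of small subunit maturation factors and not limited to cytoplasmic ones, 5 of 13 fell and 1 rose. With equal sums 1 was lower and 5 higher. The lower count was 2 without shMock 1, 1 without shMock 2 and 3 without shDUSP23 2. LTV1, a factor of small subunit export, fell from a mean of 25.3 to one of 6.29 FPKM (-1.95, adjusted p = 0.000204). DIMT1, a methyltransferase of 18S ribosomal RNA, fell by 0.73, a call that was lost without shMock 1 or shMock 2 (adjusted p = 0.0532 and 0.115) and stood at 0.89 with limma-voom (adjusted p = 0.185). NOB1, PNO1 and TRMT112 fell by 0.47, 0.50 and 0.53, and the kinase gene RIOK3 rose by 0.95.

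Large subunit assembly, the longest list, had 28 of 48 genes lower and 1 higher, with a median of -0.67. With equal sums 16 were lower and 3 higher, with a median of -0.34, and without shMock 2 the lower count was 18. MRTO4, which prepares the site of the ribosomal stalk, fell from 23.2 and 25.6 to 4.05 and 6.25 FPKM (-2.17, adjusted p = 0.000158). The GTPase genes GNL3 and GTPBP4 fell by 1.08 and 1.07. SBDS, which acts at the last step of large subunit maturation, rose from 46.4 and 48.2 to 66.6 and 72.3 FPKM (0.55, adjusted p = 0.00593). The nuclear exosome, which trims precursor ends, had 12 of 15 genes lower and 0 higher, among them EXOSC5 (-1.23), EXOSC4 (-0.98) and the helicase gene MTREX (-0.91). With equal sums 6 were lower and 1 higher, and without shMock 1 the lower count was 6. Of the snoRNP assembly factors 9 of 11 fell and 0 rose, with RUVBL2 at -1.12 and RUVBL1 at -1.11. The lower count of this list was 3 with equal sums, 5 without shMock 1 and 4 without shMock 2.

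The other nuclear RNA polymerases were counted for comparison, beside 22.2% lower and 23.1% higher calls over all tested genes (12.3% and 38.4% with equal sums). Of 5 subunits that RNA polymerases I, II and III share, 4 fell and 0 rose, with a median of -0.78. POLR2F fell from 36.2 and 37.9 to 7.71 and 9.96 FPKM (-2.02, adjusted p = 7.58e-05), and POLR2K, POLR2H and POLR2L fell with log2 fold changes of -1.35, -0.78 and -0.62. Of 11 subunits of RNA polymerase III alone 3 fell (POLR3F at -0.74, POLR3G at -1.24 and POLR3E at -0.54) and POLR3D rose (0.62), with a median of 0.04. With equal sums 1 was lower and 4 higher, with a median of 0.36. Without shMock 2 the 3 lower calls were lost (adjusted p = 0.0515, 0.0694 and 0.0656), that of POLR3E also without shMock 1 (0.131). Of 8 subunits of RNA polymerase II alone 3 fell and 1 rose, with a median of -0.18. The gene that rose was POLR2A, its largest subunit, from 25.3 and 24.9 to 46.8 and 51.3 FPKM (0.95, adjusted p = 0.000595), whereas POLR2I, POLR2G and POLR2B had log2 fold changes of -0.96, -0.88 and -0.75. TAF1D, TTF1, TCOF1, NOB1, PNO1, TRMT112, POLR2I, POLR2L and POLR3D were named after their values were seen. All of these but TAF1D and POLR2I lost their calls without shMock 2 (adjusted p = 0.0655 to 0.197), TTF1, TCOF1, NOB1, PNO1 and POLR3D also without shMock 1 (0.065 to 0.19), TCOF1, PNO1 and TRMT112 without shDUSP23 2 (0.061 to 0.098), and POLR3D and POLR2L without shDUSP23 1 (0.125 and 0.0681). The difference between these lists and the RNA polymerase I subunits was not tested.

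Genes of cell division fell in 14 of 14 cases, with a median of -1.40. With equal sums 10 were lower and 0 higher, with a median of -1.08. Of all tested genes 22.2% were called lower, or 12.3% with equal sums. PCNA, the sliding clamp of DNA replication, went from 324 and 332 to 60.1 and 56.1 FPKM (-2.49, adjusted p = 1.69e-05), and TOP2A and CCNB1 had log2 fold changes of -2.35 and -2.01. The list summed to 708 and 687 FPKM in shMock and to 179 and 171 FPKM in shDUSP23. These genes moved with the ribosome biogenesis genes, and their part in the lower values was not tested.

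**Figure D4:**
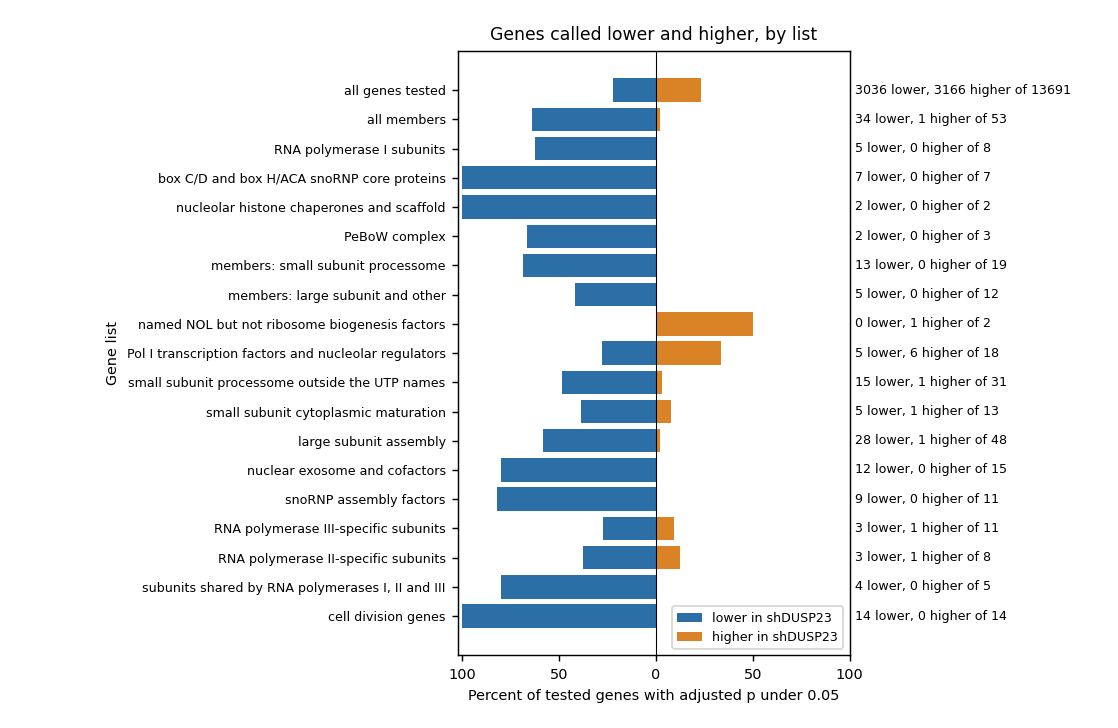
Percent of tested genes called lower (left) and higher (right) in shDUSP23 for all genes, the 53 members, their roles and the further lists, with the counts beside each bar. All genes split into 22.2% lower and 23.1% higher, whereas the members had 34 lower and 1 higher of 53. The list labelled small subunit cytoplasmic maturation is not limited to cytoplasmic factors.

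The median absolute log2 difference between replicates over the members was 0.12 in shMock and 0.15 in shDUSP23, beside 0.17 and 0.20 over all tested genes. The largest was 1.08 in shMock and 0.86 in shDUSP23. In 34 members shDUSP23 2, the library with the most fragments, lay below shDUSP23 1. Across the 53 genes the log2 fold change had a Spearman rho of -0.18 with mean level, 0.14 with GC content and 0.15 with transcript length, and across all tested genes -0.13, 0.27 and 0.14. Genes share the 4 libraries and are not independent points. After the GC content and length correction 36 members were lower and 0 higher (all genes: 22% and 22.7%), with a median of -0.65. In all, 18 of the 34 members stayed lower under each of the 18 alternatives, namely BOP1, FBL, NCL, NHP2, NOP16, NOP2, NOP56, NOP58, NPM1, POLR1C, POLR1G, RRP15, RRP9, UTP11, UTP14A, UTP18, UTP23 and WDR12.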

How the data were processed

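The authors deposited 1 table of FPKM, 1 value per Ensembl transcript and library, for 4 libraries. STAR 2.7.1a, DESeq2 1.32.0 and GRCh38 are named in the submitters' processing notes, without their roles. For the quantifier, the annotation release and the strandedness, the sources used here state nothing. Each gene was given the sum of its listed transcripts, without rescaling. Where the mean reached 1 FPKM, limma 3.58.1 (intensity trend, in R 4.3.3) compared log2(FPKM + 0.5) two-sided, with Benjamini-Hochberg adjustment over all 13691 genes, and transcripts in the same way. Total fragments were recovered from the steps of low FPKM in genes with 1 listed transcript, of which 82.5% to 84.9% per library were whole within 0.1 fragment. Lengths, GC content and gene positions came from GENCODE 29 (93.6% of transcripts matched). The procedure was tested on simulated data.

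The genes and lists were chosen with earlier results of these data known. Described in full were the RNA polymerase I subunits, snoRNP core proteins, NCL, NPM1 and PeBoW, in each other role and pathway list the 3 genes with the smallest p, and called genes against their list's median. The main fit did not pair the libraries. Their deposited names carry the same replicate tags in both groups, and whether they were prepared in pairs is not known. The replicate differences of the groups correlated at 0.05, which cannot settle this. Other pseudocounts, filters, scalings, moderation, a replicate block, GC and length correction, protein-coding transcripts alone, limma-voom and each library left out were tried. Limma-voom ran on recovered fragments of only those transcripts with a matched length, so a gene's sum can be incomplete there.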

Additional observations from a re-analysis of the deposited data

How the results depend on the processing

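Of 53 members 34 were lower and 1 higher. The lower count was 22 with equal sums and 22 to 34 with 1 library left out, and the higher count was 4 with equal sums, 0 after GC content and length correction with or without the replicate block, 2 with protein-coding transcripts alone and 0 to 1 with 1 library left out. The replicate block alone gave 36 lower and 1 higher and lost no call. The median of -0.68 was -0.35 with equal sums and -0.70 to -0.55 with 1 library left out. Of the 173 tested genes of all further lists, those of cell division and of RNA polymerases II and III included, 97 were lower and 11 higher, with a median of -0.59. These were 53 and 23 with equal sums, and 63 to 102 lower and 6 to 13 higher with 1 library left out. The median was -0.26 with equal sums, -0.49 after GC content and length correction with or without the block, and -0.61 to -0.51 with 1 library left out. Of 13 transcripts called lower, 6 were called with equal sums and 0 without any 1 library.

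Sign changes were small except where noted. POLR1D was 0.31 with equal sums, 0.06 with quantile normalization, 0.01 with limma-voom, and -0.08 to 0.03 with 1 library left out (0.00 without shDUSP23 2). With equal sums PES1 was 0.07, UTP6 0.02, NOL6 0.08, RRP7A 0.24, RRP8 0.21, NOL8 0.15, NOL12 0.12 and NOL3 0.32. After GC and length correction, with or without the block, UTP6 was 0.02, NOL7 0.01 and NOL8 0.02. With 1 library left out UTP6 ranged from -0.64 to 0.01, RRP7A from -0.22 to 0.04, RRP8 from -0.34 to 0.11 and NOL9 from -0.05 to 0.28 (-0.04 without shMock 1). With quantile normalization NOL9 was -0.00 and NOL3 0.02. With protein-coding transcripts alone RRP8 was 0.01 and NOL12 0.76 (adjusted p = 0.0191). DIMT1 was 0.89 with limma-voom (adjusted p = 0.185), a fit that leaves out transcripts without a matched length. The cause of these changes was not tested. A transcript of 2000 bases with 1 fragment has 0.0118 to 0.0235 FPKM, so among gene sums depth limits only the lowest members, such as UTP14C. Single transcripts at 0 were most frequent in shDUSP23 2, the library with the most fragments, and the cause was not tested.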
